A study of Mus musculus with 6 samples.

Results

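The genes described here encode the translation initiation factors (eIFs) and elongation factors (eEFs) of the mouse, with their subunits, inhibitors, kinases and methyltransferases. The rule for choosing them used names alone and took every protein-coding gene in the expression table whose symbol starts with Eif or Eef followed by a digit. This gave 64 of the 15388 genes in the table, of which 13812 were protein-coding. There were 52 genes with Eif symbols and 12 with Eef symbols, and all 64 passed the filter on low reads and were tested. The rule also took in regulators that are not factors themselves, such as 4 kinases of eIF2 alpha and 4 methyltransferases.

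RNA was sequenced from the hippocampus of 3 tamoxifen-treated Cx3cr1-cre/ERT2+; NuTRAP+ mice, young adults with numbers 201, 207 and 208. NuTRAP puts a GFP-tagged ribosomal protein into cells in which Cre has acted, and here Cre was driven by Cx3cr1, a gene of microglia that other macrophages of the brain also express. Translating ribosome affinity purification (TRAP) then split each lysate, so that every mouse gave 1 Input library, from the cleared lysate of all hippocampal cells, and 1 Positive library, from ribosomes captured with an antibody to GFP. The comparison asked how the level of each mRNA on the captured ribosomes stood against the whole tissue. All groups shared the genotype and the tamoxifen treatment, and the sex of each mouse was not given in the labels.

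Initiation begins when eIF2, bound to GTP and the initiator tRNA, joins the small ribosomal subunit together with eIF1, eIF1A, eIF3 and eIF5. The eIF4 factors bring this complex to the cap of the mRNA, eIF5B joins the large subunit, eEF1A then delivers each aminoacyl-tRNA, and eEF2 moves the ribosome along. Cells throttle the process at a few points, by phosphorylation of eIF2 alpha, by the 4E-binding proteins that occupy the cap-binding protein eIF4E, and by the kinase of eEF2. Many mRNAs of the translation machinery, those of ribosomal proteins above all, carry a run of pyrimidines at their 5′ end (a TOP motif) through which mTOR signalling controls their translation.

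The libraries held 14879734 to 17757918 reads, which carried no molecular identifiers. Every pair of replicates differed by more than sampling noise. The captured fraction matched its label: all 8 microglial markers were higher in Positive, with a median log2 fold change of 4.63. It was not pure. All 4 markers of border macrophages (median log2 fold change 4.17) and all 5 endothelial markers (2.00) were also higher, and all 5 oligodendrocyte markers were lower (-2.92). Of 6 neuronal markers (median 0.10), 5 did not pass the test and Gad1 was higher (0.34, edgeR adjusted p = 0.00302). Snap25 lay at 27923 to 32062 scaled reads in Input and 32028 to 38428 in Positive. Of 5 astrocyte markers (median -0.295), 4 did not pass the test and Gfap was lower (-0.41). Of 4 mural cell markers (median -0.288), 3 did not pass the test and Cspg4 was lower (-1.08). The Positive library of mouse 208 stood apart from the other Positive libraries. Its summed microglial markers were the lowest of the 3, at 80502 scaled reads against 98744 and 118368, as were those of border macrophages, oligodendrocytes, endothelial cells, mural cells and astrocytes, and its summed neuronal markers were the highest, at 110026 against 95891 and 93340. Their part in the factor values was not tested. In such bulk fractions fewer cells of a type and less RNA per cell cannot be told apart.

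On the whole, mRNAs of the translation factors stood slightly higher on the captured ribosomes than in the tissue. Of the 64 genes, 25 were higher in Positive, 5 were lower and 34 did not pass the test (edgeR quasi-likelihood test, adjusted p under 0.05, n = 3 per fraction). Over all genes tested, 46% were called, with 23.9% higher and 22% lower, so the share of factors called (46.9%) was that of the background, while the split was 39.1% higher against 7.81% lower. The median log2 fold change was 0.18 for the factors and -0.01 for all genes tested, and within mice 201, 207 and 208 the factor median was 0.16, 0.19 and 0.14. Most differences were small. Only 16 of the higher and all 5 of the lower genes were also past an absolute log2 fold change of 0.32, the fold limit in the study's methods (39.8% of all genes tested), and 4, all higher, reached 2-fold (12.8% of all genes tested). Of these 4, Eef1akmt4 passed the filter on low reads only through Positive, where it was high. The ranges of the 3 Input and 3 Positive libraries did not overlap for 37 factors, and for 56.5% of all genes tested. Without the Positive library of mouse 208, 24 factors were higher and 4 lower, with a median log2 fold change of 0.13. When libraries were scaled by total reads instead, 18 were higher and 9 lower, and the median was 0.10 for the factors and -0.09 for all genes. That scaling moved all genes, since 41.6% of all calls were then higher, against 52.1%.

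**Figure D1:**
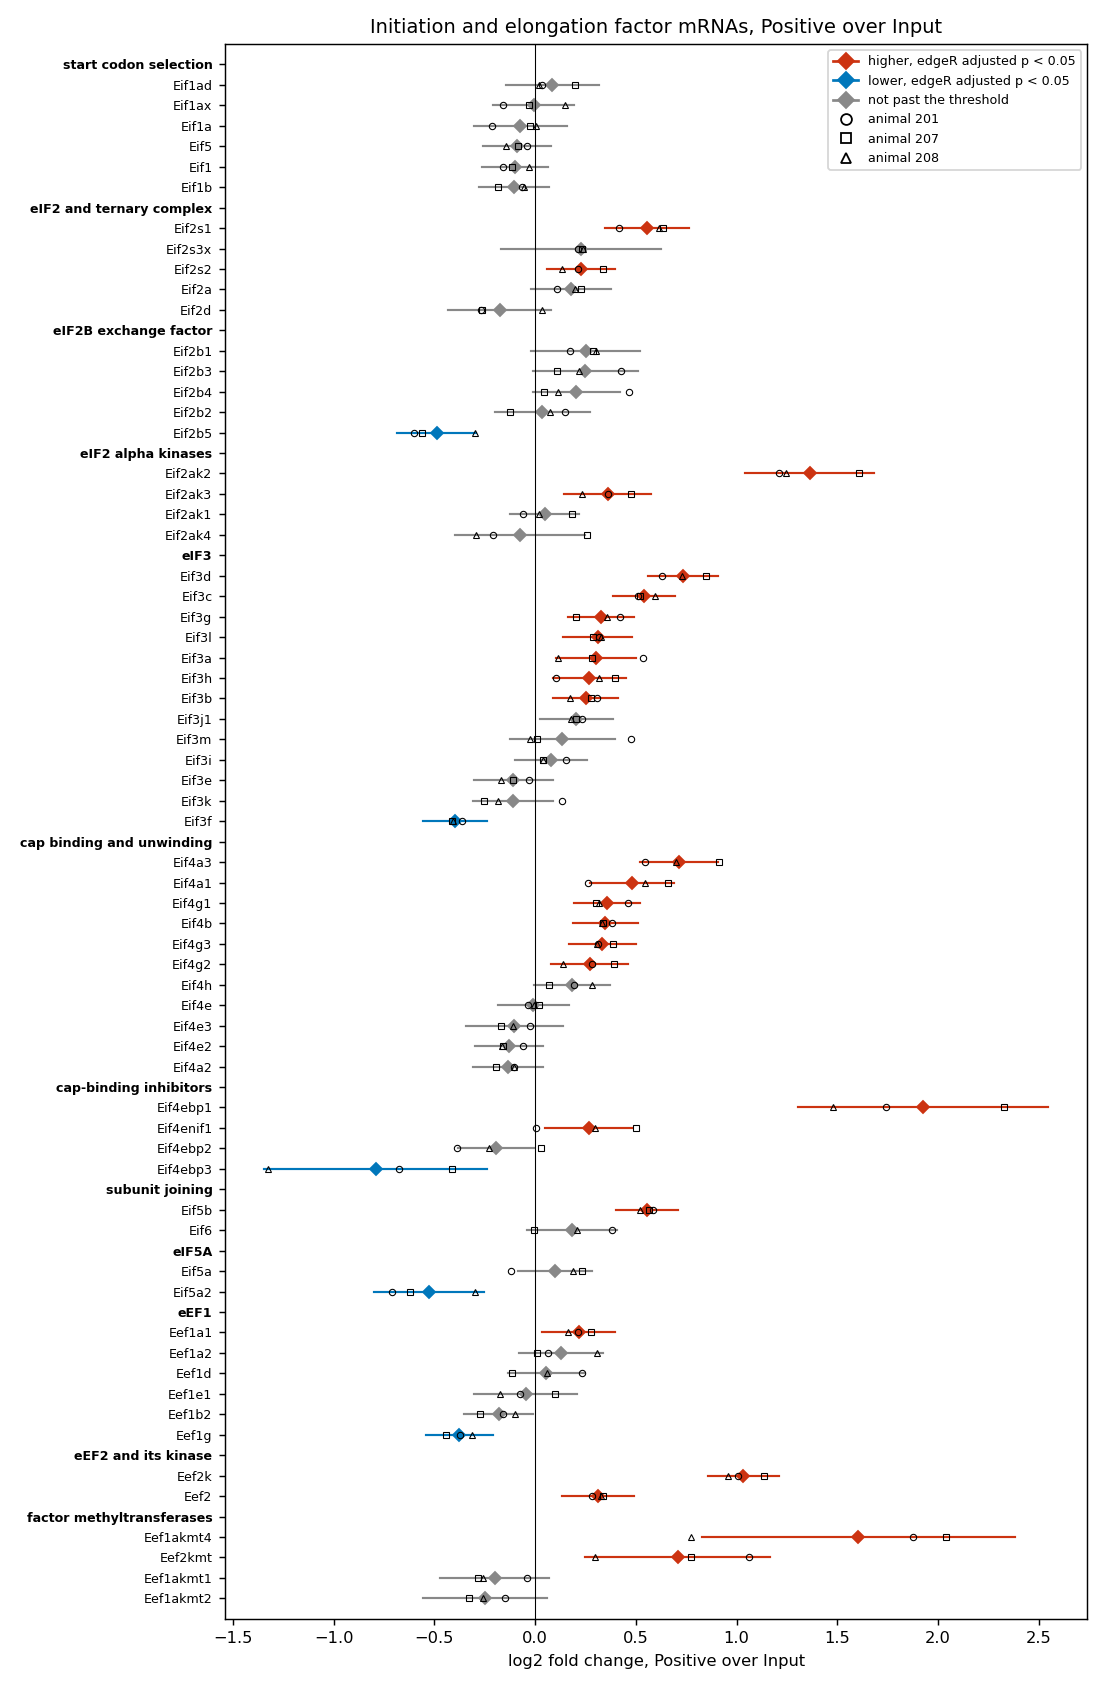
Log2 fold change of Positive over Input for the 64 factor genes, grouped by role. Diamonds with bars show the edgeR estimate with its 95% interval, and open symbols show the 3 mice one by one. The 4 points past a log2 fold change of 1 belong to Eif4ebp1, Eef1akmt4, Eif2ak2 and Eef2k, and most of the rest lie within 0.6 of 0. Eef1akmt4 passed the filter on low reads only through Positive.

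Genes of the ribosomal proteins themselves were mostly lower. Of 79 cytosolic ribosomal protein genes, 43 were lower in Positive and 3 higher, with a median log2 fold change of -0.33. Together the factor mRNAs took 0.995%, 1.00% and 1.01% of all reads in the Input libraries of mice 201, 207 and 208, and 1.08%, 1.07% and 1.09% in the Positive libraries. The ribosomal protein mRNAs took 0.674%, 0.751% and 0.729% in Input and 0.562%, 0.588% and 0.559% in Positive. The factors' share was thus higher in every Positive library than in any Input library, and that of the ribosomal proteins lower in every one.

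**Figure D2:**
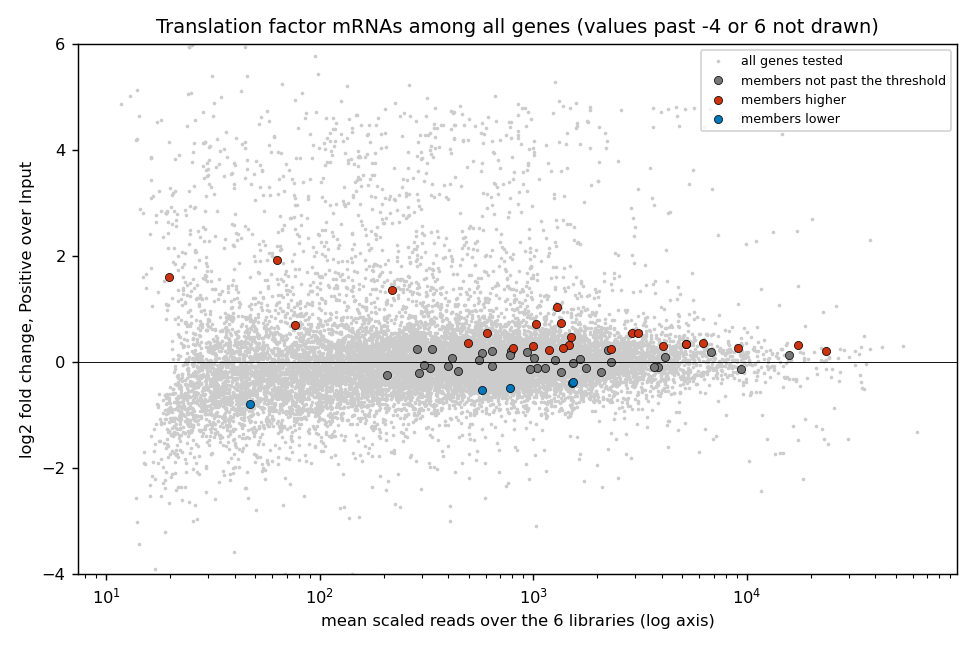
Mean scaled reads (log axis) against log2 fold change of Positive over Input, with all genes tested in grey and the factor genes in colour. The factors spread from a mean of 19.7 to 23626 scaled reads, and the 2 with the largest fold changes lie at the low end.

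To see whether a TOP-like start marks factors that moved, RefSeq start windows (build GRCm38.p6) were searched on the strand of the gene for a C, within 10 bases of the annotated start, that opens a run of at least 6 C or T. Of the 64 genes, 51 had a start window in the table used. Such a run was present in 12 of the 51 (23.5%), against 21.9% of 27025 genes and 55.9% of the 59 ribosomal protein genes with a window. Runs of at least 12 bases occurred in 3 of the 51 factors (5.88%), against 2.11% of all genes with a window and 15.25% of the ribosomal protein genes. These windows, and that of the most abundant factor, Eef1a1, are shown because the calls of their genes differ, and were picked with values known. Each is 30 bases long, 5′ to 3′ on the strand of the gene, with the run in capitals.
Eif3f (chr7:108934405-108934434, plus strand): tctaggCTCTCTCTCTTTCTCggcaagatg
Eif2b5 (chr16:20498807-20498836, plus strand): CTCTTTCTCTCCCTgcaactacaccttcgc
Eif2s3x (chrX:94212632-94212661, minus strand): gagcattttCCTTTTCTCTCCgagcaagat
Eef1a1 (chr9:78481705-78481734, minus strand): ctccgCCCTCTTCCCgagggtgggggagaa
Eif3f and Eif2b5, with runs of 15 and 14 bases, were among the 5 factors lower in Positive. Of the other lower factors, Eif5a2 had a window without a run, and Eef1g and Eif4ebp3 had no window and were not searched. The run of Eif2b5 begins 10 bases before the annotated start, so most of it lies outside the annotated mRNA. Those of Eef1a1, Eif3f and Eif2s3x begin at -5, -4 and -1 from that start, so part of each lies outside too. Eif2s3x, with 12, was not called, and Eef1a1, with 10, was higher. Across all genes tested with a window, the median log2 fold change hardly varied with the run, at 0.002 for no run, 0.024 for 6 to 11 bases and -0.011 for 12 or more. Annotated starts can differ from those used in these cells, so a missing run says only that these letters were not near the annotated start.

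Of the 6 genes grouped here under start codon selection, none passed the test, against 46% of all genes tested. Their log2 fold changes were -0.10 to 0.09, with 95% intervals within -0.31 and 0.32. Eif1, the scanning factor that guards start codon choice, had 4027, 3867 and 4029 scaled reads (raw reads over the size factor of the library) in the Input of mice 201, 207 and 208, and 3601, 3576 and 3945 in Positive. Its close paralog Eif1b had 1697, 1961 and 1832 scaled reads in Input and 1625, 1726 and 1764 in Positive. For both genes the ranges of the fractions overlapped. Reads of Eif1 are uncertain, since near-identical copies at 6 other loci cover its coding bases. The log2 ratio of Eif1 to Eif1b was 1.12 ± 0.13 in Input and 1.12 ± 0.06 in Positive (SD, n = 3). Neither eIF1A gene passed the test, with 2244, 2363 and 2342 scaled reads in Input and 2007, 2312 and 2598 in Positive for the X-linked Eif1ax, and 635, 641 and 706 against 547, 629 and 707 for Eif1a. Eif5, which makes eIF2 hydrolyse its GTP, and Eif1ad, whose part in start codon choice was not tested, were not called either.

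The eIF2 complex carries the initiator tRNA and consists of an alpha, a beta and a gamma subunit. Eif2s1, the alpha subunit whose phosphorylation slows initiation, had 530.5, 453 and 497 scaled reads in Input and 709, 704 and 763 in Positive, without overlap. Its log2 fold change was 0.56 ± 0.10 (SE), with an edgeR adjusted p of 0.000474. Eif2s2, the beta subunit, rose less, by 0.23 ± 0.08 on the log2 scale (adjusted p = 0.0282). The call was lost when any one library was left out except the Positive library of mouse 208, with adjusted p from 0.0539 to 0.111, and the log2 fold change then was 0.20 to 0.25. Under total count scaling it was 0.15, with an adjusted p of 0.12. Another copy in the genome covers all coding bases of Eif2s2 as well. Eif2a and Eif2d, which can deliver initiator tRNA without eIF2, had log2 fold changes of 0.18 and -0.18 and did not pass the test.

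Eif2s3x, the gamma subunit, is encoded on the X chromosome (mm10, X, 94188707 to 94212862, minus strand) and is known to escape X inactivation in mice. It had 1490, 2308 and 2373 scaled reads in the Input of mice 201, 207 and 208 and 1724, 2712 and 2795 in Positive. Mouse 201 was low in both fractions, which made the ranges overlap, yet within each mouse Positive was higher, with log2 ratios of 0.21, 0.23 and 0.24. The log2 fold change was 0.23 ± 0.18 (SE) with an edgeR adjusted p of 0.332. With the mouse as a block, the pairing that the labels give, the adjusted p was 0.018 at a log2 fold change of 0.23. Without the Positive library of mouse 201 it was 0.0414, at 0.42. The Y-linked gene Kdm5d had 429.5, 43.1 and 48.1 scaled reads in Input and 431.8, 20.4 and 18.6 in Positive, so mouse 201 stood apart in it too. The Y-linked counterpart of Eif2s3x was not among the 64 genes that the rule found in the expression table, so it was not analysed. Another copy with at least 97% identity, also on X, covers 95.2% of the coding bases of Eif2s3x, so its reads are uncertain.

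The guanine exchange factor eIF2B reloads eIF2 with GTP and is built from 5 different subunits. Of these, 1 passed the test, against 46% of all genes tested. Eif2b5 (mm10, chromosome 16, 20498817 to 20509955, plus strand) encodes the catalytic epsilon subunit and had 959, 901 and 857 scaled reads in Input against 632, 609 and 696 in Positive. The fractions did not overlap, and Positive was at 71.3% of Input (log2 fold change -0.49 ± 0.09 SE, edgeR adjusted p = 0.000783). The call held under every alternative listed in the closing section, with log2 fold changes of -0.56 to -0.45. The other four subunits, Eif2b1 to Eif2b4, had log2 fold changes of 0.04 to 0.25, none of them called (adjusted p 0.109 to 0.811). Their 95% intervals reached from -0.20 to 0.52. Whether Eif2b5 differed from them was not tested.

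**Figure D3:**
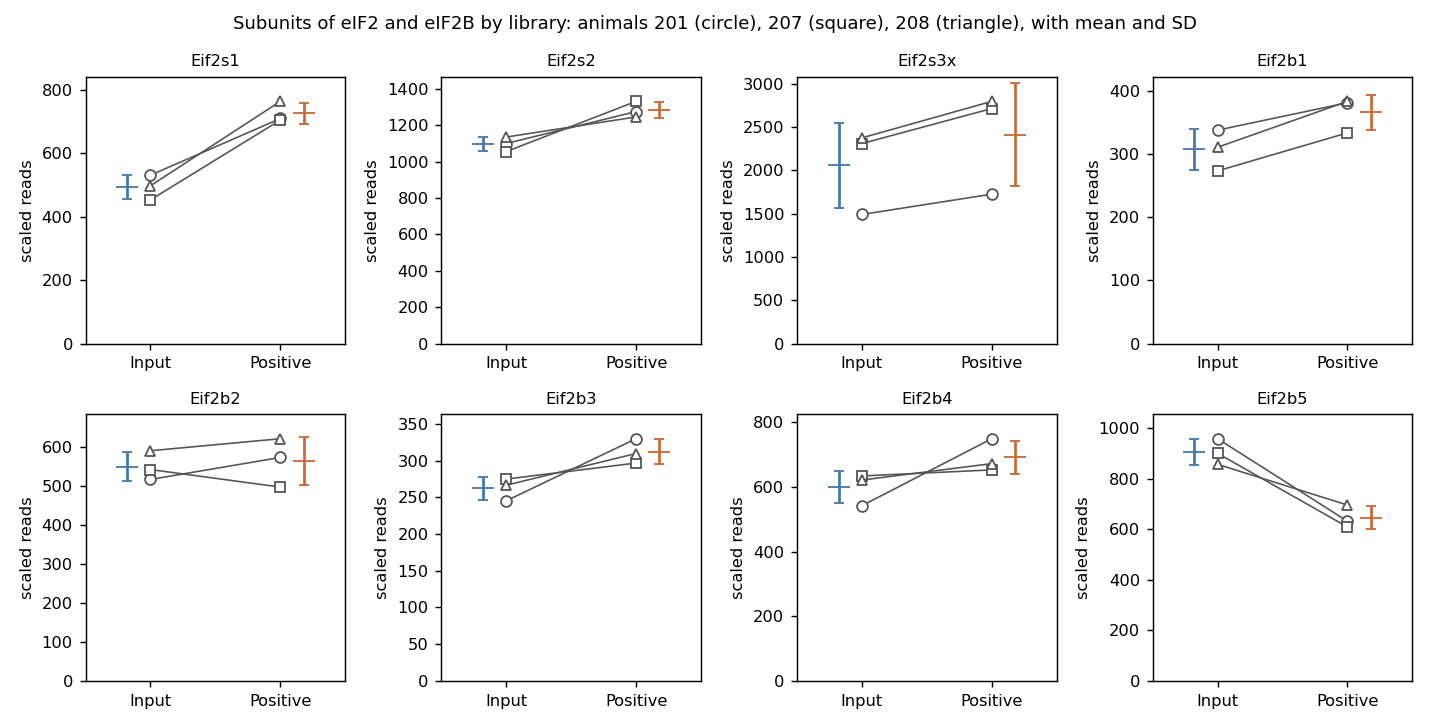
Scaled reads of the 3 subunits of eIF2 and the 5 subunits of eIF2B in each library, with lines joining the Input and Positive library of one mouse and bars giving mean and SD (n = 3). Positive lies above Input in all 3 mice for the eIF2 subunits, with mouse 201 low in both fractions for Eif2s3x, and below Input in all 3 for Eif2b5.

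The 4 kinases of eIF2 alpha each respond to a different stress. The test called 2 of the 4 higher on the captured ribosomes, where the share of such calls among all genes tested was 23.9%. Eif2ak2 encodes PKR, the interferon-induced kinase activated by double-stranded RNA (mm10, chromosome 17, 78852564 to 78882573, minus strand). It had 138, 111 and 117 scaled reads in Input and 321, 339 and 279 in Positive, a 2.57-fold difference (log2 fold change 1.36 ± 0.15 SE, edgeR adjusted p = 8.92e-06). Eif2ak3, or PERK, the kinase of the unfolded protein response, had 432, 427 and 438 scaled reads in Input and 557, 594 and 514 in Positive, a 1.28-fold difference (adjusted p = 0.0104). Neither gene overlapped between fractions. Eif2ak1, the heme-regulated kinase, had 1300, 1162 and 1261 scaled reads in Input and 1249, 1319 and 1280 in Positive and was not called. Eif2ak4, or GCN2, the sensor of uncharged tRNA, was not called either, at a log2 fold change of -0.08. The log2 ratio of Eif2ak2 to Eif2ak3 went from -1.82 ± 0.16 in Input to -0.83 ± 0.05 in Positive (SD, n = 3).

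eIF3 is the largest initiation factor, a scaffold that holds the small subunit open for mRNA. Of its 13 subunit genes, 7 were higher in Positive, 1 was lower and 5 did not pass the test. The shares over all genes tested were 23.9% higher and 22% lower. Eif3d, a peripheral subunit that can itself bind the cap of some mRNAs, changed most, with 1089, 954 and 989 scaled reads in Input and 1688, 1718 and 1641 in Positive (log2 fold change 0.73 ± 0.08 SE, edgeR adjusted p = 8.96e-06). Eif3c, of the core, followed at 0.54, and Eif3g (0.33), Eif3l (0.31), Eif3a (0.30), Eif3h (0.27) and Eif3b (0.25) were closer to the background. Eif3a, the large core subunit, had 3182, 3869 and 3893 scaled reads in Input and 4603, 4704 and 4204 in Positive, without overlap. The 3 smallest of these lost their calls under several alternatives. Under total count scaling the adjusted p was 0.0595 for Eif3a, 0.0696 for Eif3b and 0.0725 for Eif3h. Eif3a and Eif3b were not called without the Input library of mouse 201 (adjusted p = 0.0752 and 0.0572) or the Positive library of mouse 207 (0.0565 and 0.0551), and Eif3h was not called without the Input library of mouse 207 (0.102) or 208 (0.0786).

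Eif3f was the eIF3 gene that fell. This MPN-domain subunit, which pairs with Eif3h in the complex, had 1648, 1770 and 1765 scaled reads in Input and 1281, 1327 and 1327 in Positive, or 75.9% of Input (log2 fold change -0.40 ± 0.07 SE, edgeR adjusted p = 0.000799). All 3 mice went down, and the fractions did not overlap. The genes not called, Eif3e, Eif3i, Eif3j1, Eif3k and Eif3m, had log2 fold changes of -0.11 to 0.20. Subunits of one complex thus lay on both sides of the median of all genes.

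Among the cap-binding and unwinding factors, 6 of 11 were higher in Positive and none lower. Over all genes tested, 23.9% were higher and 22% lower. Under total count scaling Eif4a2 (-0.21, edgeR adjusted p = 0.0419) and Eif4e2 (-0.21, adjusted p = 0.0455) were lower and Eif4g2 was not called (0.0816). The 3 scaffold genes were all higher: Eif4g1 had 5280, 5610 and 5495 scaled reads in Input and 7265, 6910 and 6834 in Positive (log2 fold change 0.36, edgeR adjusted p = 0.00194), and Eif4g3 had 4820, 4346 and 4642 against 5984, 5684 and 5748 (0.33, adjusted p = 0.00335). Their log2 ratio overlapped between fractions. Eif4g2, which lacks the eIF4E-binding part and serves other modes of initiation, had a log2 fold change of 0.27, a call that was lost without the Input library of mouse 201 (adjusted p = 0.099) or 207 (0.083) or the Positive library of mouse 207 (0.0884). Eif4b, the partner of the helicase, had 4395, 4554 and 4747 scaled reads in Input and 5714, 5757 and 5984 in Positive (log2 fold change 0.35, adjusted p = 0.00209). Eif4h, of similar function, had 5917, 6648 and 6467 against 6762, 6972 and 7875 and was not called.

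None of the 3 cap-binding genes passed the test, against 46% of all genes tested. Eif4e, which binds the cap, had 1500, 1465 and 1645 scaled reads in Input and 1461, 1484 and 1638 in Positive, nearly the same values in each mouse. Copies elsewhere in the genome cover all coding bases of Eif4e, so its reads are uncertain. Eif4e2, a relative that represses translation, had 962, 1015 and 1047 in Input and 922, 909 and 935 in Positive, with a log2 fold change of -0.13 (95% interval -0.30 to 0.04). Eif4e3 had 324, 349.6 and 351 against 319, 310.1 and 325. Its exons overlap those of Gm20696 on the same strand, which makes its reads uncertain.

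Of the helicases of the eIF4A family, 2 of 3 were higher, against 23.9% of all genes tested. Eif4a3, the anchor of the exon junction complex rather than of the cap complex, had 862, 709 and 775 scaled reads in Input and 1257, 1335 and 1257 in Positive (log2 fold change 0.71 ± 0.09 SE, edgeR adjusted p = 3.26e-05). Eif4a1 had 1461, 1130 and 1178 in Input and 1752, 1786 and 1721 in Positive (0.48 ± 0.10 SE, adjusted p = 0.00139). Eif4a2, with the highest level of the 3 per kilobase of exon, had 9337, 10060 and 10078 in Input and 8688, 8784 and 9361 in Positive and was not called (-0.14, adjusted p = 0.183). The log2 ratio of Eif4a1 to Eif4a2 was higher in Positive in all 3 mice, with a mean of -2.98 in Input and -2.35 in Positive. Reads of Eif4a1 are uncertain, since all its coding bases have another copy in the genome. The processed pseudogene Eif4a-ps4 on chromosome 1 is 99.9% identical to it, and 96.4% of its 42-base windows match Eif4a1 exactly. The pseudogene had its own 1251 to 1307 scaled reads in Input and 1817 to 1900 in Positive. Summed with Eif4a1, a step chosen after the values were seen, the log2 ratio of the means was 0.52, against 0.48 for Eif4a1 alone.

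The inhibitors of cap binding held both the largest rise and the largest fall. Eif4ebp1 (mm10, chromosome 8, 27260329 to 27276674, plus strand), which sequesters eIF4E until mTOR phosphorylates it, had 33.0, 23.4 and 23.0 scaled reads in Input and 113, 121 and 65.9 in Positive. All Positive libraries lay above all Input libraries, that of mouse 208 least so, and the difference was 3.80-fold (log2 fold change 1.93 ± 0.29 SE, edgeR adjusted p = 0.000135). Over the 11 alternatives that tested it, the log2 fold change was 1.76 to 2.15. Eif4ebp2, the main form in brain, had 1522, 1346 and 1466 scaled reads in Input and 1163, 1371 and 1250 in Positive (log2 fold change -0.20, adjusted p = 0.0825). The ranges overlapped through the Positive library of mouse 207, and without it the adjusted p was 0.0442 at -0.26. The log2 ratio of Eif4ebp1 to Eif4ebp2 went from -5.73 ± 0.23 to -3.69 ± 0.47 (SD, n = 3), and per kilobase of exon Eif4ebp1 stood at 0.0483 times the level of Eif4ebp2 in Input and 0.209 times in Positive.

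Eif4ebp3, a further 4E-binding protein, fell to 57.8% of Input, from 54.2 to 70.2 scaled reads to 27.4 to 42.2 (log2 fold change -0.79 ± 0.26 SE, edgeR adjusted p = 0.0228). Its exons overlap those of AC115631.1 on the same strand, and the call was lost without the Input library of mouse 208 (adjusted p = 0.0985) or the Positive library of mouse 201 (0.0551) or 208 (0.0581). Eif4enif1, the shuttling protein that takes eIF4E into the nucleus, had a log2 fold change of 0.27 (adjusted p = 0.0445). It lost its call without the Input library of mouse 207 (0.191) or 208 (0.0959), without the Positive library of mouse 207 (0.132) or 208 (0.0763), in DESeq2 (0.0535), under total count scaling (0.129) and with the filter at over 100 scaled reads (0.0668).

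Eif5b, the GTPase that joins the large subunit, had 2497, 2432 and 2577 scaled reads in Input and 3742, 3601 and 3694 in Positive, with narrow and separate ranges (log2 fold change 0.56 ± 0.07 SE, edgeR adjusted p = 4.1e-05). Eif6, which keeps free large subunits from joining, was not called (0.18, adjusted p = 0.165), although without the Input library of mouse 207 its adjusted p was 0.0298 at 0.31. The paralogs of eIF5A, the hypusine-bearing factor that helps ribosomes past difficult peptide bonds, were measured as well. Eif5a had 4415, 3739 and 3916 in Input and 4063, 4392 and 4465 in Positive, with overlap and no call. Eif5a2 (mm10, chromosome 3, 28781276 to 28798846, plus strand) had 640.3, 709 and 699 against 391, 461 and 568, without overlap, or 69.3% of Input (log2 fold change -0.53 ± 0.13 SE, adjusted p = 0.00433). The log2 ratio of Eif5a to Eif5a2 was higher in Positive in each mouse, with means of 2.56 in Input and 3.20 in Positive. All coding bases of Eif5a have another copy in the genome, so its reads are uncertain.

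The highest levels per length were those of elongation factors. Per kilobase of exon, Eef1a1, Eef1a2 and Eef2 ranked 1, 2 and 3 of the 64 in both fractions, with mean levels of 8765, 7216 and 4663 scaled reads per kilobase in Input and 10189, 7892 and 5800 in Positive. Eef1a1, the eEF1A of most cells, had 21834, 21392 and 22324 scaled reads in Input and 25309, 25911 and 24987 in Positive (log2 fold change 0.22 ± 0.08 SE). The ranges were separate, but the edgeR adjusted p of 0.0499 lay at the threshold. It was 0.0701 with the mouse as a block and 0.0988 to 0.175 when 1 library was left out, save for the Positive library of mouse 208. Total count scaling (0.184) and the filter at over 100 scaled reads (0.0652) ended the call too. Eef1a2, the form of mature neurons and muscle, had 16208, 14571 and 14333 in Input and 16964, 14638 and 17739 in Positive, with overlap and no call (0.13, 95% interval -0.08 to 0.34). All coding bases of Eef1a1 have another copy in the genome, none of those of Eef1a2.

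Eef1g, the gamma subunit of the exchange factor that recharges eEF1A, fell, with 1689, 1734 and 1772 scaled reads in Input and 1306, 1277 and 1423 in Positive (log2 fold change -0.38 ± 0.08 SE, edgeR adjusted p = 0.00153). Its reads are uncertain too, since copies cover all its coding bases. The partners Eef1b2 and Eef1d, the beta and delta subunits, had log2 fold changes of -0.18 and 0.05 and were not called, nor was Eef1e1 (-0.05), a scaffold protein of aminoacyl-tRNA synthetases. Eef1b2 was lower under total count scaling (-0.26, adjusted p = 0.0167) and with the filter at over 100 scaled reads (-0.21, adjusted p = 0.0407).

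Eef2 and the kinase that inhibits it were both higher. Eef2 had 16155, 14944 and 15401 scaled reads in Input and 19647, 18887 and 19301 in Positive (log2 fold change 0.31 ± 0.08 SE, edgeR adjusted p = 0.0078), and the call was lost without the Input library of mouse 207 (0.0546) or 208 (0.0521). Eef2k, the calcium- and calmodulin-dependent kinase of eEF2 (mm10, chromosome 7, 120842831 to 120907450, plus strand), had 884, 822 and 830.4 in Input and 1776, 1806 and 1612 in Positive. Every Positive library held about double the Input level, 2.05-fold in the fit (log2 fold change 1.03 ± 0.08 SE, adjusted p = 3.81e-07). Over the alternatives the log2 fold change was 0.958 to 1.08.

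The methyltransferases that modify these factors were low in reads. Eef1akmt4, which methylates a lysine of eEF1A, had 6.66, 8.60 and 13.6 scaled reads in Input and 27.1, 38.4 and 23.9 in Positive (log2 fold change 1.60 ± 0.36 SE, edgeR adjusted p = 0.00292). It passed the filter of 20 scaled reads only through Positive, the fraction where it was high, so its call carries little weight. Its exons overlap those of Gm49333 on the same strand, so these few reads cannot be assigned with certainty. Eef2kmt, which methylates eEF2, had a log2 fold change of 0.71 and lost its call without the Input library of mouse 201 (adjusted p = 0.0598) or 207 (0.0605) or the Positive library of mouse 201 (0.0535). Eef1akmt1, with 278, 343 and 311 against 271, 282 and 260.0 scaled reads, and Eef1akmt2 were not called.

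Because the ratio of 2 genes within one library does not depend on how libraries are scaled, paralogs were also compared as pairs. Of 13 pairs listed, 11 had both genes measured. The log2 ratio of Positive and Input libraries did not overlap in 6 of them. Single genes did not overlap in 56.5% of all genes tested, and no such share was computed for other pairs of genes. The log2 ratio was higher in Positive by 2.05 for Eif4ebp1 over Eif4ebp2, 1.00 for Eif2ak2 over Eif2ak3, 0.64 for Eif5a over Eif5a2, 0.63 for Eif4a1 over Eif4a2, 0.17 for Eif4b over Eif4h and 0.12 for Eif4e over Eif4e2, each in 3 of 3 mice. In a two-sided exact permutation test each of these 6 had p = 0.1, the smallest that 3 against 3 libraries allow, or 0.183 after Benjamini-Hochberg adjustment over the 11 pairs, so none could pass 0.05. The other pairs overlapped, among them Eef1a1 with Eef1a2 (0.09, exact permutation p = 0.5) and Eif1 with Eif1b (-0.001, p = 1 in the same exact test).

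**Figure D4:**
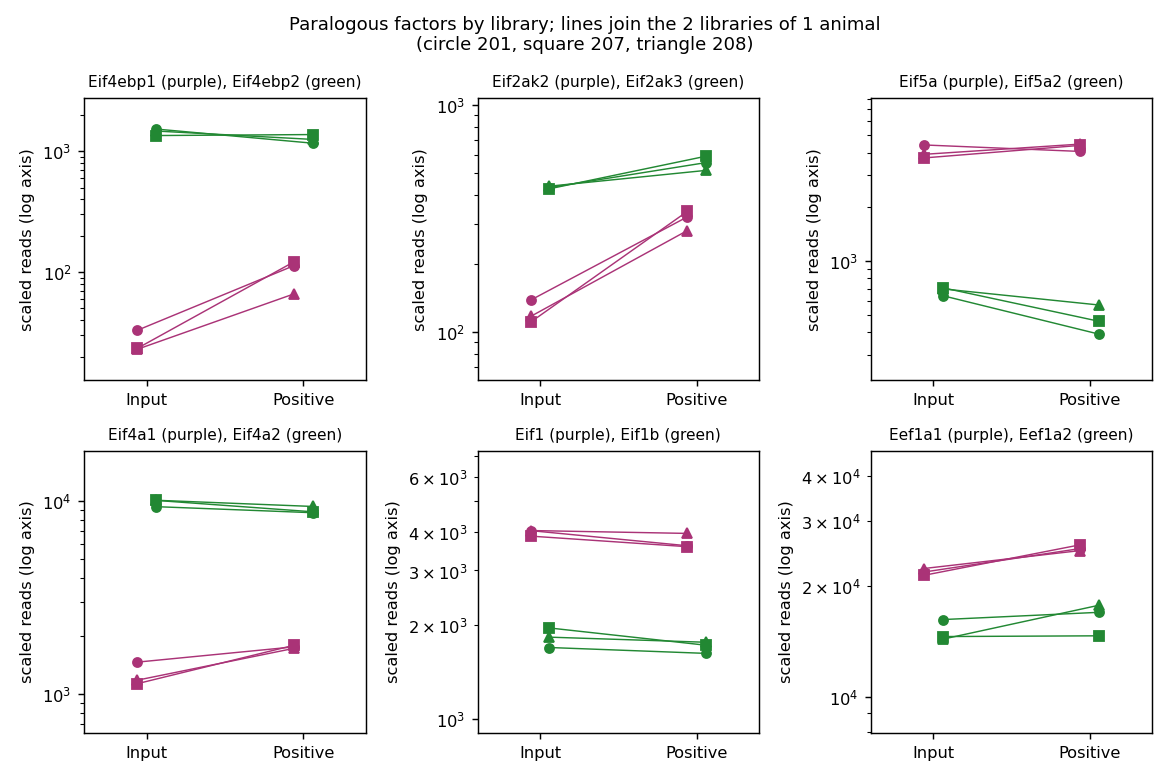
Scaled reads (log axis) of 6 paralog pairs in Input and Positive, one line per mouse. The lines of the paired genes converge for Eif4ebp1 with Eif4ebp2, Eif2ak2 with Eif2ak3 and Eif4a1 with Eif4a2, spread apart for Eif5a with Eif5a2, and run side by side for Eif1 with Eif1b.

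A property that the choice did not use, the length of the coding region, went with the fold change, as was noticed after the values were seen. Across the 64 genes the rank correlation of coding length (all annotated coding bases of a gene) with log2 fold change was 0.42, against 0.11 across 13765 protein-coding genes tested. For exon length, the other measure computed, it was weaker, at 0.15 across the 64 genes and 0.01 across 13774 protein-coding genes. Genes are not independent replicates, and all points come from the same 6 libraries. The median log2 fold change was -0.08 for the 20 factors with under 900 coding bases, 0.22 for the 26 from 900 to 1800 and 0.29 for the 18 above 1800. For all protein-coding genes of these classes it was -0.08, 0.03 and 0.05. Of the 18 long factors, 12 were higher and 1, Eif2b5, was lower. Of all 5230 protein-coding genes above 1800 coding bases, 1513 were higher and 884 lower.

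**Figure D5:**
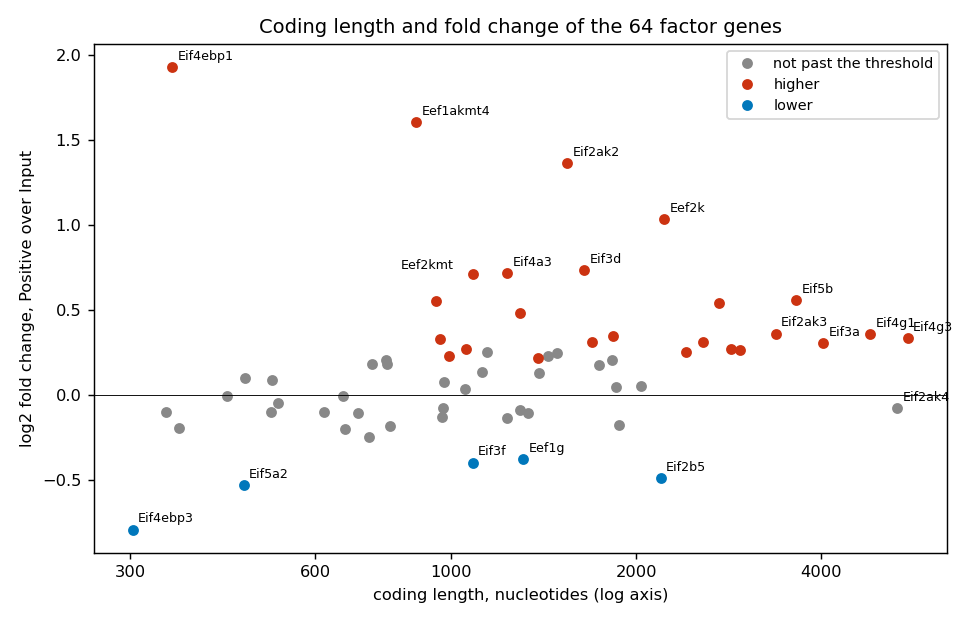
Coding length (log axis) against log2 fold change of the 64 factor genes, coloured by call. Above 3000 coding bases, all genes but Eif2ak4 are higher, while the short Eif4ebp1 (351 bases) has the largest fold change.

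Other genes of the translation pathway, listed by role, lay on both sides. Of 51 partners, 14 were higher, 8 lower and 29 not called, with a median log2 fold change of 0.10. The share called, 43.1%, with 27.5% higher and 15.7% lower, was near that of all genes tested. Without the Input library of mouse 208, 9 were higher, and without that of mouse 207, 4 were lower, while total count scaling gave 9 higher and a median of 0.02. Among the kinases and regulators of mTOR, S6K and MNK signalling, 5 of 13 were higher (38.5%) and 2 lower (15.4%), against 23.9% and 22% of all genes tested. Mknk1, which phosphorylates eIF4E on its scaffold Eif4g1, had 490.0, 445 and 439 scaled reads in Input and 1034, 1136 and 974 in Positive (log2 fold change 1.19 ± 0.10 SE, edgeR adjusted p = 4.34e-07), and its relative Mknk2 was also higher (0.56). Mtor had 1834, 1616 and 1717 in Input and 1111, 855 and 848 in Positive (-0.88 ± 0.11 SE, adjusted p = 2.47e-05), while Rptor, its partner in the complex that phosphorylates the 4E-binding proteins, went from 1390, 1154 and 1234 to 2177, 2039 and 2000 (0.72). Rictor, of the other mTOR complex, was lower (-0.26, adjusted p = 0.0395).

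Of 8 termination and recycling factors, 2 (25%) were higher, near the 23.9% of all genes tested. They were Gspt1, the release factor eRF3a (0.98 ± 0.08 SE, edgeR adjusted p = 3.57e-07), and Abce1, which splits ribosomes after termination (0.31). In the integrated stress response, Nck1, an adaptor protein (0.84), and Dnajc3, an inhibitor of the eIF2 alpha kinases (0.41), were higher. Ppp1r15a, the stress-induced subunit that directs dephosphorylation of eIF2 alpha, was lower (-0.36, adjusted p = 0.0365), and the transcription factor Atf4, which is translated when eIF2 alpha is phosphorylated, was not called (-0.29, adjusted p = 0.0621). Dohh, which completes hypusine on eIF5A, was lower (-0.53), as was Dph3 of diphthamide synthesis on eEF2 (-0.52), whereas Dph1 (0.38) and Dph2 (0.39) were higher. Of the 6 poly(A)-binding genes, Paip2b (-0.45) and Pabpn1 (-0.38) were lower and none higher, against 22% lower and 23.9% higher over all genes tested. Of the mitochondrial factors, Tufm (0.32) and Gfm1 (0.30) were higher and Gfm2 (-0.33) lower.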

How the data were processed

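The authors trimmed the directional, poly(A)-selected read pairs, aligned them by strand to mm10 in Strand NGS, counted reads per gene, and removed genes unless all 3 libraries of a fraction reached 20 reads. The deposited raw columns are expected counts, not always whole (17.3% to 23.1% of values per library were), with an excess of even numbers among low whole values. How mates were counted was not settled, so independent fragments may be fewer than reads. The deposited normalized columns, log2 values that the authors made with the DESeq algorithm and centred on Input, were not used for tests.

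Expected counts were rounded and tested in R 4.3.3 with the edgeR 4.0.16 quasi-likelihood test, median-of-ratios scaling, without a block as in the study, on the 15343 genes that exceeded 20 scaled reads in all libraries of either fraction. P-values were Benjamini-Hochberg adjusted over all of them and called under 0.05. Methods were tested on simulated data. In 3 simulations, 47% to 64% of genes changed by 0.5 on the log2 scale were recovered, and 99% to 100% of those changed by 1.0. Genes that were not called may thus still differ by small amounts. Same-numbered libraries came from the same mouse per the labels (correlation of their deviations 0.194, 0.058 and 0.12), so a fit with the mouse as a block was an alternative, as were TMM scaling, total count scaling, DESeq2 1.42.0, a filter at over 100 scaled reads, no filter, and each library left out. Pair ratios used a pseudocount of 1, with 0.1 and 10 as alternatives.

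Lengths came from GENCODE vM21 (64 of 64 members matched) and near-identical coding copies, at 97% identity or more, from BLAST 2.17.0 against GRCm38. Such copies covered at least 95% of coding bases in 10 members (Eef1a1, Eef1g, Eif1, Eif2s2, Eif2s3x, Eif3j1, Eif3m, Eif4a1, Eif4e and Eif5a). Start windows came from RefSeq. Values in every library are given for genes past 2-fold, both genes of each pair, and the most changed and most abundant gene of each role, and for a few others. Members, roles, partners and markers were chosen with earlier results of these data known.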

Additional observations from a re-analysis of the deposited data

How the results depend on the processing

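Of the 25 higher, 5 lower and 34 uncalled factor genes, 16, 4 and 20 kept both direction and side of the threshold under every alternative that tested them. The filter at over 100 scaled reads dropped Eif4ebp1 and Eef1akmt4, which are counted among the 16, and also Eif4ebp3 and Eef2kmt. TMM scaling and omission of the filter changed none of the calls. Total count scaling gave 9 lower factors and a median of 0.103, and 9 higher partners with a median of 0.021, and under it Eif2b2 (-0.040), Eif2ak1 (-0.029) and Eef1d (-0.023) turned negative without a call. The same scaling ended the calls of Eif2s2, Eif3a, Eif3b, Eif3h, Eif4g2, Eif4enif1 and Eef1a1 and made Eif4a2, Eif4e2, Eif4ebp2 and Eef1b2 lower. A filter at over 100 scaled reads, which tested 60 of the factors, gave medians of 0.129 for factors and 0.071 for partners. With the replicate block for the mouse, which pairs the libraries, 25 factors were higher and 5 lower. Of these 30, 29 were shared with the unpaired fit: Eif2s3x gained its call (adjusted p = 0.018, log2 fold change 0.226) and Eef1a1 lost it (0.0701, 0.217), and the block changed no other factor call.

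Leaving out each library in turn gave 19 to 24 higher and 4 to 6 lower factors with medians of 0.132 to 0.182, and 9 to 15 higher and 4 to 7 lower partners with medians of 0.070 to 0.107. The fewest partners were called higher without the Input library of mouse 208 (9) and lower without that of mouse 207 (4). Uncalled values changed sign within their leave-one-out ranges for Eif1a (-0.166 to 0.015), Eif1ax (-0.100 to 0.081), Eif2b2 (-0.037 to 0.120), Eif2ak4 (-0.177 to 0.064), Eif3m (-0.010 to 0.218), Eif4e (-0.061 to 0.043) and Eef1d (-0.005 to 0.140), and for the pair differences of Eef1a1 and Eef1a2 (-0.005 to 0.159), Eif1 and Eif1b (-0.072 to 0.062) and Eif4g1 and Eif4g3 (-0.035 to 0.083). The cause was not tested. Each of these 6 fits rests on 2 libraries in one fraction. Reads without molecular identifiers and counts split between near-identical copies limit what the values of low or duplicated genes can show.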
